A study of Homo sapiens with 6 samples.

Results

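TCam-2 is an established human cell line grown from a testicular seminoma, a tumour whose cells resemble primordial germ cells. The 2 libraries of unmodified (WT, non-transduced) TCam-2 cells are described here, out of 6 libraries in the study. The other libraries, 2 of cells transduced with GFP_FLAG and 2 of cells transduced with RBMXL3_FLAG, were the same line and are not used here. All were cultured in serum-supplemented medium, and polyadenylated RNA was made into stranded libraries. WT carries no transgene and is 1 line, so the 2 libraries show the spread between samples of that line and not between tumours or donors. The labels do not say whether they came from separate cultures, so the SD given for n = 2 libraries may be technical. With 1 group there is no comparison to test, and all values are descriptions.

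Human primordial germ cells are specified by SOX17 and TFAP2C, with PRDM1 repressing the somatic programme, while POU5F1 and NANOG of the pluripotency network stay on. The receptor tyrosine kinase KIT carries the survival signal of the migrating cells. Seminomas keep this combination, whereas embryonal carcinoma, the other undifferentiated germ cell tumour, uses SOX2 in place of SOX17. POU5F1, SOX17, TFAP2C, PRDM1 and KIT were therefore taken as the markers of the line.

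Levels are in TPM, a measure of transcript abundance that is divided by transcript length, so genes can be compared with each other. A gene's level is the sum over its transcripts. Of the 251955 transcripts in the deposited table, 80.04% had a gene in GENCODE 29, and the others carried 5.31% and 5.28% of the TPM of libraries 1 and 2. Summed levels are therefore lower bounds for genes with such transcripts. The gene table of the study gave 29318007 and 28604436 recovered reads, and reads per gene are printed beside TPM where both bear on a result. A gene was counted as detected at 1 TPM or more in both libraries and as not detected below 0.1 TPM in both. Of 58090 genes, 13043 (22.5%) were detected, among them 11866 of 19828 protein-coding genes (59.8%). At the other end, 4744 protein-coding genes (23.9%) were not detected. The 59.8% is the background share for each count of list members below.

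The transcripts of the identity genes are shown first by sequence, since the dominant isoform of each is a result of the data. For each pair the opening 48 coding bases are given 5′ to 3′ with the start codon in capitals. The sequences are those of the GENCODE 29 models on GRCh38. The deposited table often holds a later version of the same transcript, as for POU5F1-201, TFAP2C-201, PRDM1-203 and PDPN-212, so a version may differ from the bases shown.
POU5F1-201 (chr6:31170573-31170620, minus strand): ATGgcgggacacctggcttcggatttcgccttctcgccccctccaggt
POU5F1-206 (chr6:31165592-31165639, minus strand): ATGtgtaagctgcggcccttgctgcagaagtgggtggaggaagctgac
TFAP2C-201 (chr20:56629545-56629592, plus strand): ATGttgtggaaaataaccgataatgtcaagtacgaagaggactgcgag
TFAP2C-202 (chr20:56630361-56631240, plus strand, across an exon junction): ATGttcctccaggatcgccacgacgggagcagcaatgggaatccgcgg
PRDM1-203 (chr6:106086554-106088206, plus strand, across an exon junction): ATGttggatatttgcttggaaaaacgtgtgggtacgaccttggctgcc
PRDM1-201 (chr6:106099086-106099338, plus strand, across an exon junction): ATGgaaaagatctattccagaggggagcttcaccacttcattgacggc

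POU5F1-201 codes for 360 amino acids and is the full-length form known as OCT4A, while POU5F1-206 starts further along the gene and codes for 164. POU5F1-201 stood at 1527 and 1387 TPM and POU5F1-206 at 1.28 and 1.57 TPM, so the full-length form held 99.9% and 99.8% of the gene. TFAP2C-201 codes for 450 amino acids, and the annotated coding part of TFAP2C-202, which opens in another exon, spans 118 whole codons. The former was at 699.9 and 602 TPM and held 97.1% and 98.1% of the gene, against 20.8 and 11.9 TPM for the latter. PRDM1-203 codes for 825 amino acids and PRDM1-201 for 691, having a later start. PRDM1-203 was at 27.1 and 25.7 TPM, or 96.4% and 93.6% of the gene, and PRDM1-201 was listed at 0 in both libraries. SOX17 has 1 annotated transcript. KIT-201 was the single transcript above 0 of the 4 that were assigned to KIT. Transcripts with no assigned gene are outside this count and outside all isoform shares given here. Whether any of them belong to KIT was not tested. In the 3 marker genes with a choice of expressed forms, 1 full-length form thus held over 90% of the assigned TPM in both libraries.

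NANOG differed from the markers in that its TPM was split. Its 4 assigned transcripts include NANOG-201, the reference form of 305 amino acids, and NANOG-202, which lacks 48 coding bases. The others are NANOG-204, which starts later, and NANOG-203, annotated without a coding frame. The coding bases 502 to 549 of NANOG-201 that NANOG-202 lacks are in capitals, with the 15 coding bases on either side in lower case, across an exon junction.
NANOG-201 segment (chr12:7794529-7794741, plus strand): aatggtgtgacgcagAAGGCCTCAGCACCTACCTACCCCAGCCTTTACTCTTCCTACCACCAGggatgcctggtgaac
NANOG-202 was at 213 and 230.4 TPM and NANOG-201 at 184 and 179 TPM. NANOG-204 stood at 198 and 139.6 TPM and NANOG-203 at 153 and 174 TPM. Shares of the 4 forms lay between 19.3% and 31.8%, so no form was dominant in either library.

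The NANOG promoter is printed because it holds the opening 7 bases of the octamer, the DNA word that POU5F1 recognises. It does not hold the full word. The 35116 promoter windows of RefSeq (GRCh38.p14) run from 250 bases before to 50 after a gene's start. The full octamer, ATGCAAAT on either strand, was in 623 windows (1.77%) and in 0 of the windows of the specifier and pluripotency lists. The shorter word ATGCAAA, which every octamer also holds, was in 1567 windows (4.46%). The 200 bases before the NANOG start are shown with the match to the shorter word in capitals, as read on the plus strand.
NANOG promoter (chr12:7789202-7789401, plus strand): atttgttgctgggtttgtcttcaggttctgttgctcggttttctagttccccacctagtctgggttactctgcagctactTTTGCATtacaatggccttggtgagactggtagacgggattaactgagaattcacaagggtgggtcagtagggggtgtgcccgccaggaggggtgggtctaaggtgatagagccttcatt
The match begins 120 bases before the start. Of the pluripotency-associated genes, 9 had a window (10 windows in all) and NANOG was the 1 with the shorter word. Of the primordial germ cell and seminoma specifiers 14 had one (24 windows in all), and PRDM1 and DPPA3 held the shorter word. The 4.46% is a share of windows and these are counts of genes, so they cannot be set against each other directly. A match describes the letters in a window, and binding was not measured.

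POU5F1 (ENSG00000204531.17; chromosome 6, 31164337 to 31180731, minus strand), the pluripotency transcription factor OCT4, was the most abundant of the 5 markers. Its level was 1529 and 1389 TPM (SD 98.7), from 37393 and 32731 reads, and it ranked 104 among all genes. TFAP2C (ENSG00000087510.6; chromosome 20, 56629302 to 56639283, plus strand), an AP-2 factor of germ cell specification, followed at 721 and 614 TPM (SD 75.3), rank 222, from 37874 and 31953 reads. SOX17 (ENSG00000164736.5; chromosome 8, 54457935 to 54460888, plus strand), the HMG-box factor that starts the human germ cell programme, was at 148 and 149.6 TPM (SD 1.24), rank 1060, from 4451 and 4273 reads. These 3 factors lay within the top 2% of all genes.

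PRDM1 (ENSG00000057657.16; chromosome 6, 106086320 to 106109939, plus strand), the repressor BLIMP1, was lower, at 28.2 and 27.4 TPM (SD 0.529) and rank 4751, from 3204 and 2969 reads. KIT (ENSG00000157404.15; chromosome 4, 54657918 to 54740715, plus strand), the stem cell factor receptor, was listed at 4.35 and 6.26 TPM (SD 1.35), rank 9843, although it had 3045 and 2864 reads, close to those of PRDM1, whose transcript is of like length. The order of the markers by TPM was POU5F1, TFAP2C, SOX17, PRDM1 and KIT in both libraries, and the values of neighbours did not overlap. Between the libraries the first 4 differed by at most 0.23 on the log2 scale, and KIT by 0.52. For KIT the TPM and the reads disagree. At the ratio of reads per kilobase to TPM that the median gene showed, its reads would correspond to 31.02 TPM, near PRDM1. The part of transcripts with no assigned gene in this gap was not tested. All 5 markers were above 1 TPM in both libraries.

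**Figure D1:**
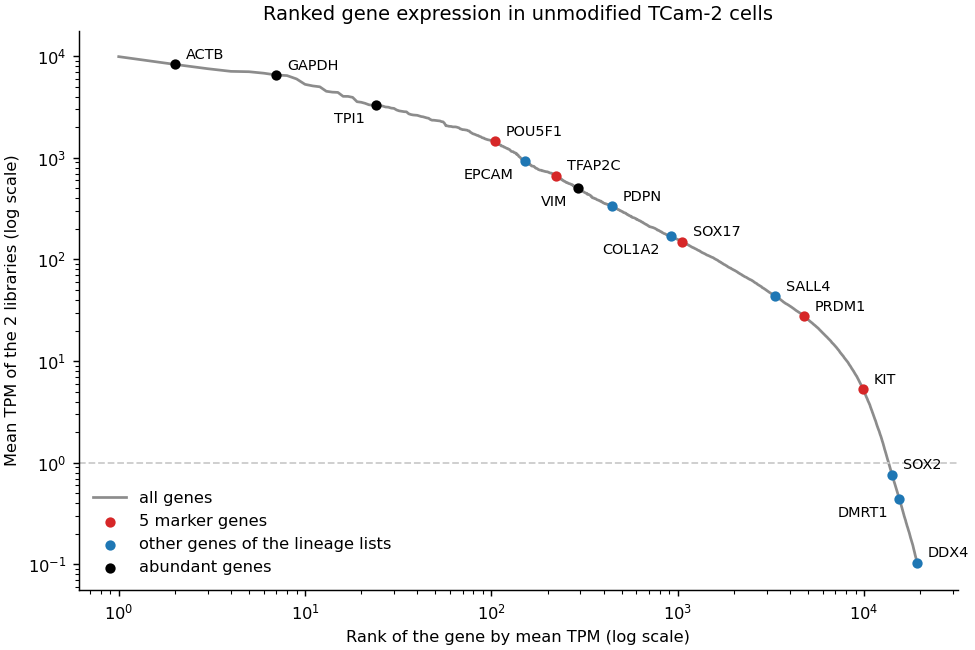
Mean TPM of the 2 libraries (log scale) against the rank of the gene (log scale), for genes of at least 0.1 TPM. Red points are the 5 markers, from POU5F1 at rank 104 to KIT at rank 9843, blue points other lineage genes, black points abundant genes, and the dashed line is 1 TPM.

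Of the 20 primordial germ cell and seminoma specifiers, 19 were detected (95%), against 59.8% of all protein-coding genes, and their median level was 19.9 TPM. This and the other lists were chosen with earlier results of these data known. Such a contrast therefore describes the chosen members and cannot test the identity of the line. MYBL2, a MYB-family cell cycle factor, was the second most abundant of the list at 853 and 809.8 TPM (SD 30.7). SOX15, an SRY-related factor of early germ cells, was at 136 and 116 TPM (SD 14.4), and KLF4, a Krüppel-like pluripotency factor, at 82.98 and 88.2 TPM (SD 3.703). PRDM14, a PR-domain regulator of germ cell pluripotency, stood at 42.6 and 43.1 TPM (SD 0.3496), ETV5, an ETS factor, at 32.5 and 35.4 TPM (SD 2.04), and TFCP2L1, a factor of naive pluripotency, at 19.6 and 21.7 TPM (SD 1.47). Among the detected specifiers, the 6 most abundant were all transcription factors, as are most members of the list.

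TFAP2A, the AP-2 paralogue of TFAP2C, was at 20.1 and 17.6 TPM (SD 1.72), and CD38, a surface enzyme, at 16.1 and 16.4 TPM (SD 0.192). TCL1B, a TCL1-family oncogene, was listed at 19.4 and 18.9 TPM (SD 0.344) but had 10 and 29 reads, and 49.9% of its exon length lies under another gene of the same strand. Its level is therefore uncertain. TCL1A was at 9.41 and 12.1 TPM (SD 1.88), the germ cell RNA-binding factor NANOS3 at 7.001 and 6.88 TPM (SD 0.0884) and DPPA3 at 1.002 and 1.66 TPM (SD 0.465). DMRT1, a testis determinant retained in the gonadal germ line, was the 1 member under the limit, at 0.414 and 0.474 TPM (SD 0.0427) from 14 and 17 reads.

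Of the 15 pluripotency-associated genes, 14 were detected (93.3%, beside 59.8% of all protein-coding genes), with a median of 43.5 TPM. NANOG, the homeobox partner of POU5F1, was at 749 and 724 TPM (SD 17.9), rank 193, and POU5F1 exceeded it 2.04-fold and 1.92-fold. L1TD1, an RNA-binding protein of embryonic stem cells, was at 593 and 497 TPM (SD 67.8). LIN28A and LIN28B, which block maturation of let-7 microRNAs, were at 241 and 217 TPM (SD 17.2) and 67.7 and 59.6 TPM (SD 5.74). DPPA4, a chromatin factor, stood at 161 and 156 TPM (SD 3.46), and TDGF1, the NODAL co-receptor, at 134 and 116 TPM (SD 12.7). These 6 genes all lay above 50 TPM in both libraries.

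UTF1, a chromatin-bound pluripotency factor, was at 92.6 and 99.6 TPM (SD 4.88), SALL4, a zinc finger repressor, at 41.98 and 45.05 TPM (SD 2.17), and TERF1, a telomere protein, at 36.8 and 35.2 TPM (SD 1.11). DNMT3B, a de novo DNA methyltransferase, was at 23.7 and 24.05 TPM (SD 0.229) and MYC at 15.99 and 14.4 TPM (SD 1.104). The growth factor FGF4 was at 7.95 and 6.94 TPM (SD 0.715), DPPA2, the partner of DPPA4, at 6.73 and 5.99 TPM (SD 0.517) and GDF3, a TGF-beta ligand, at 3.51 and 2.44 TPM (SD 0.758). DPPA4 exceeded DPPA2 23.9-fold and 26.03-fold. ZFP42 (REX1) was not detected, at 0.0728 and 0 TPM from 3 and 0 reads, and was the single member of this list below 0.1 TPM in both.

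Surface antigens used to recognise germ cell tumours were abundant. CD9, a tetraspanin, was at 922 and 969 TPM (SD 33.3) and EPCAM, an adhesion molecule, at 1007 and 868 TPM (SD 98.3). PDPN, podoplanin, the target of the D2-40 antibody, was at 349 and 315 TPM (SD 24.03) and ALPL, the tissue-nonspecific alkaline phosphatase, at 312 and 289.6 TPM (SD 15.9). CXCR4, the chemokine receptor of migrating germ cells, was at 224 and 249 TPM (SD 17.1), PROM1 (CD133) at 202 and 205 TPM (SD 2.14), CD24 at 33.95 and 42.7 TPM (SD 6.17) and THY1 at 25.4 and 23.9 TPM (SD 1.09). The placental-type phosphatases were low, with ALPG at 1.42 and 1.73 TPM (SD 0.2201) and ALPP at 0.224 and 0.512 TPM, and these 2 genes are near-identical copies whose reads could be split. TNFRSF8 (CD30), the antigen of embryonal carcinoma, was at 0.535 and 0.496 TPM (SD 0.0277).

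Markers of the other germ cell tumour types were mostly under 1 TPM. SOX2 was at 1.03 and 0.503 TPM (SD 0.371) from 37 and 18 reads, and SOX17 exceeded it 144-fold in library 1 and 298-fold in library 2. NODAL was at 0.884 and 0.343 TPM (SD 0.383), and LEFTY1 had no read in either library. Of the 10 embryonal carcinoma markers 4 were detected (40%, beside 59.8% of all protein-coding genes), all of them above 20 TPM. CLDN6, a claudin of undifferentiated cells, was at 578 and 530.3 TPM (SD 33.7) and KRT19, a keratin, at 144 and 144 TPM (SD 0.135). DNMT3L, the catalytically inactive partner of the de novo methyltransferases, was at 42.3 and 49.5 TPM (SD 5.05), and GAL, the neuropeptide galanin, at 24.8 and 28.9 TPM (SD 2.896). SOX2, NODAL and TNFRSF8 were not among them.

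Of the 15 yolk sac and endoderm markers 3 were detected (20%, beside 59.8% of all protein-coding genes). GATA4, a GATA factor also expressed in the gonad, was at 21.1 and 18.4 TPM (SD 1.9), GPC3, a glypican, at 20.2 and 18.8 TPM (SD 1.01) and GATA6 at 2.18 and 2.88 TPM (SD 0.496). AFP, the serum marker of yolk sac tumour, and TTR had 0 reads in both libraries, which allows up to 3 reads in each. Of the 17 trophoblast markers 6 were detected, and KRT7, a simple-epithelial keratin, alone passed 10 TPM, at 94.4 and 103 TPM (SD 5.92). HAND1 was at 8.76 and 7.05 TPM (SD 1.21), the envelope gene ERVW-1 (syncytin) at 8.21 and 10.1 TPM (SD 1.33), and CGA, the common alpha subunit of the gonadotropins, at 4.39 and 1.79 TPM (SD 1.84). The beta subunit genes CGB3, CGB5 and CGB8 were listed at 0 TPM with 0 reads. They are near-identical copies whose reads could be split or dropped, so their counts are uncertain.

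Markers of somatic differentiation were few. Of the 12 neuroectoderm markers 3 were detected, led by OTX2, a homeobox factor of the anterior epiblast and brain, at 14.8 and 11.3 TPM (SD 2.499). SOX1 was at 0.284 and 0.407 TPM (SD 0.0871), PAX6 at 0.0218 and 0 TPM, and NEUROD1, NEUROG2 and OLIG2 had no read. Of the 12 mesoderm and muscle markers 3 were detected, none at 10 TPM in both libraries. NKX2-5, a cardiac homeobox gene, was highest by mean at 3.18 and 4.62 TPM (SD 1.02). TNNT2, another of the 3, was listed at 3.52 and 3.1 TPM but had 4 and 13 reads, so its level is uncertain. TBXT (brachyury) was at 0.145 and 0.254 TPM (SD 0.07703) and MYOG had no read. PAX6, TBXT and MYOG were under 1 TPM in both libraries.

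Genes of later germ cell development were mostly low or absent. Of 29 such genes 8 were detected (27.6%), and 7 had no read in either library. TDRD12, a tudor protein of the piRNA pathway, was highest at 63.97 and 72.5 TPM (SD 6.0). ID4, a helix-loop-helix factor known from spermatogonial stem cells, was at 23.4 and 23.5 TPM (SD 0.0742). The meiotic genes MEIOC, SYCP2 and DMC1 were at 6.65 and 5.31 TPM (SD 0.949), 3.08 and 4.75 TPM (SD 1.18) and 1.799 and 3.47 TPM (SD 1.18). MEIOB was listed at 1.96 and 3.37 TPM (SD 0.993) but had 0 and 5 reads. DAZL, the licensing factor of gametogenesis, had 0 reads and DDX4 (VASA) 3 and 5 reads, at 0.0839 and 0.125 TPM. SYCP1 and SPO11, which act in meiotic chromosome pairing and breakage, had 0 reads.

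Of the 14 spermatid genes 1 was detected, TSSK6, a spermatid kinase, at 2.47 and 1.802 TPM (SD 0.473). The protamines PRM1 and PRM2 and the transition proteins TNP1 and TNP2, which pack sperm chromatin, had 0 reads in both libraries. For each of these 4 genes a count of 0 allows up to 3 reads, or 0.102 and 0.105 per 1000000 reads.

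Markers of other cell types of the testis were low. Sertoli cell markers were detected in 2 of 12 cases, AMH at 5.84 and 8.51 TPM (SD 1.89) and SOX9 at 1.45 and 1.44 TPM (SD 0.00607), while FSHR and KITLG, the ligand of KIT, had 1 read in each library. Of 9 Leydig cell markers 2 were detected, CYP11A1 at 1.78 and 2.104 TPM (SD 0.228) and HSD3B1 at 2.02 and 1.22 TPM (SD 0.564), while STAR, CYP17A1 and INSL3 had no read. TEK was the 1 detected of 8 endothelial markers, at 5.98 and 5.53 TPM (SD 0.319), with PECAM1 at 0.136 and 0.0459 TPM. Of 12 leukocyte markers 1 was detected and 4 had 10 or more reads in both libraries, while PTPRC, CD3D, CD3E and MS4A1 had no read. The summed level of each of these 4 lists was at most 13.2 TPM in either library.

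Of the fibroblast markers 54.5% and of the epithelial markers 75% were detected, beside 59.8% of all protein-coding genes. COL1A2, the alpha-2 chain of type I collagen, was at 169 and 169 TPM (SD 0.135), while COL1A1, its partner chain, was at 3.09 and 4.59 TPM (SD 1.06) and COL3A1 at 1.31 and 1.44 TPM (SD 0.0925). TAGLN, a smooth muscle actin-binding protein, was at 26.3 and 28.3 TPM (SD 1.38), whereas ACTA2 was at 0.8701 and 0.606 TPM (SD 0.187), PDGFRA at 0.366 and 0.274 TPM (SD 0.0653) and DCN at 0.124 and 0.0962 TPM (SD 0.0194). Of these 11 fibroblast and peritubular myoid markers 6 were detected, and DCN and PDGFRA were under 1 TPM. COL1A2 exceeded COL1A1 54.6-fold and 36.8-fold.

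Of the 12 epithelial markers 9 were detected. The simple-epithelial keratin KRT18 was at 783 and 729.9 TPM (SD 37.6). CDH1 (E-cadherin) was at 116 and 104 TPM (SD 8.42), the splicing regulator ESRP1 at 139 and 139.6 TPM (SD 0.3001), and the epithelial transcription factor GRHL2 at 25.5 and 26.1 TPM (SD 0.459). The claudins CLDN7, CLDN4 and CLDN3 stood at 113 and 140.3 TPM (SD 19.5), 27.6 and 32.3 TPM (SD 3.35) and 26.3 and 30.5 TPM (SD 3.01). KRT8, the partner of KRT18, was listed at 173 and 171 TPM (SD 1.23), but its 20257 and 18579 reads resembled the 19896 and 18462 reads of KRT18. Keratins of stratified and intestinal epithelium were low, with KRT5 at 0.123 and 0.111 TPM, KRT14 at 0 and 0.0688 and KRT20 at 0.02805 and 0.

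Cancer-testis antigens, genes of the germ line that many tumours switch on, were present in 4 of 27 cases. PRAME was at 170.1 and 172 TPM (SD 1.36) and XAGE2 at 129.9 and 118 TPM (SD 8.25). XAGE1B was listed at 934 and 674 TPM (SD 184) but had 5 reads in each library. It has a near-identical copy, XAGE1A, so its count is uncertain. All 7 MAGEA genes on the list were listed at 0 TPM with 0 reads, as were CTAG1B, CTAG2, SSX1 and SSX2. Some members of these families have close copies, whose reads could be split or dropped. Whether this touched their counts was not tested. Over all 17 lineage lists, 95 of 245 genes were detected, beside 59.8% of all protein-coding genes.

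**Figure D2:**
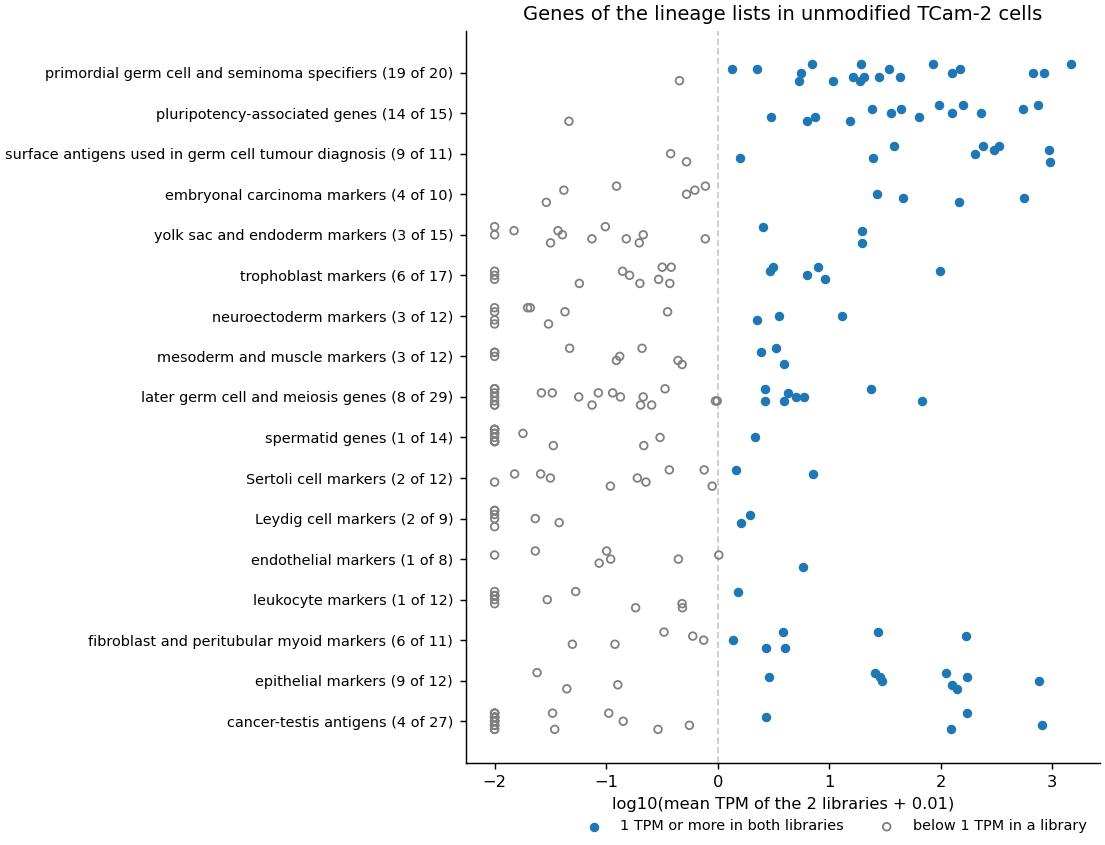
Each point is 1 gene of a lineage list, at log10 of its mean TPM over the 2 libraries plus 0.01. Filled points are detected in both libraries and open points are not, the numbers give detected members of each list, and the dashed line marks 1 TPM. The first 3 lists lie mostly to the right, the spermatid and leukocyte lists to the left.

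The most abundant transcripts came from housekeeping genes. The 10, 100 and 1000 highest genes held 7.11%, 28.8% and 62.7% of all TPM in library 1 and 7.04%, 28.9% and 62.6% in library 2. Of the 100 highest, 55 encode cytosolic ribosomal proteins, 12 lie on the mitochondrial genome and 33 are others. Cytosolic ribosomal protein genes held 15.6% and 17.3% of TPM and mitochondrially encoded genes 5.68% and 4.32%.

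MT-CO2, a subunit of cytochrome c oxidase, had the highest mean of the TPM sums, at 11099 and 8663 TPM (SD 1723), although EEF1A1 had the most reads. Of the 7 mitochondrial genes among the 25 highest, the others were MT-CO1 at 7519 and 6066 TPM (SD 1027), MT-CO3 at 5997 and 4186 TPM (SD 1280.3), MT-ND4L at 4713 and 5266 TPM (SD 391), MT-ND4 at 4548 and 3495 TPM (SD 745), MT-ATP6 at 3909 and 2957 TPM (SD 673) and MT-ND3 at 4324 and 2321 TPM (SD 1417). These encode parts of the respiratory chain and its ATP synthase. All but MT-ND4L were lower in library 2.

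Cytoskeletal and metabolic genes filled most of the other places. ACTB, the main non-muscle actin, was at 8422 and 8159 TPM (SD 186), and TMSB4X, the actin monomer-binding thymosin, at 6059 and 8980.4 TPM (SD 2066). PPIA, the isomerase cyclophilin A, was at 7476 and 6683 TPM (SD 560.2), and GAPDH and TPI1, enzymes of glycolysis, at 6562 and 6484 TPM (SD 55.6) and 3329.6 and 3230.3 TPM (SD 70.2). GSTP1, a glutathione transferase, was at 5899 and 6028 TPM (SD 91.7), FTH1, the ferritin heavy chain, at 5489 and 5059 TPM (SD 304), and PTMA, a nuclear acidic protein, at 4725 and 4063 TPM (SD 468). Of these 8 genes TMSB4X differed most between the libraries.

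The 10 ribosomal protein genes among the 25 highest ran from RPL8, at 6952 and 7091 TPM (SD 98.2), to RPS29, at 2489 and 3984 TPM (SD 1057). RPL41 stood at 5648 and 7223 TPM (SD 1114), RPL30 at 4159 and 4862 TPM (SD 497), RPS2 at 4637 and 4208 TPM (SD 303) and RPLP0 at 3938 and 4094 TPM (SD 111). RPS23 was at 3658 and 4203 TPM (SD 385), RPS18 at 3269 and 3853 TPM (SD 413), RPS20 at 3321 and 3712 TPM (SD 277) and RPLP2 at 3209 and 3367 TPM (SD 112). Of these, RPS2 alone was lower in library 2.

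Every member of the 5 lists of abundant functions was detected, among 17 glycolysis genes, 16 translation factors, 21 cytoskeleton genes, 14 chaperones and 12 nucleolar and RNA-binding proteins. After GAPDH and TPI1, glycolysis was led by ENO1, an enolase, at 1741 and 1606 TPM (SD 95.01), and by LDHB, a lactate dehydrogenase subunit, listed at 1527 and 1508 TPM (SD 13.4) with 57 and 110 reads. Among translation factors, by TPM, TPT1 was at 2951 and 2835 TPM (SD 81.9), the ribosomal scaffold RACK1 at 2483 and 2672 TPM (SD 134), EEF1G at 1984 and 2023 TPM (SD 27.5) with 0 reads and the translocase EEF2 at 1469 and 1447 TPM (SD 15.4). EEF1A1, of the same list, was lower by TPM and highest of all genes by reads. Tubulin and actin genes followed ACTB, with TUBA1B at 2861 and 2820.4 TPM (SD 28.4) and ACTG1 at 2550.0 and 2702 TPM (SD 107).

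Chaperones were led, after PPIA, by HSPA8 at 1918 and 1768 TPM (SD 106), HSPE1 at 1558 and 1579 TPM (SD 14.4) with 563 and 1197 reads and HSP90AA1 at 1622 and 1373 TPM (SD 176). The highest nucleolar and RNA-binding proteins were HNRNPA1, a splicing regulator, at 2653 and 2622 TPM (SD 22.1), NPM1, nucleophosmin, at 2529.9 and 2367 TPM (SD 115), the nuclear transport GTPase RAN at 1478 and 1524 TPM (SD 32.6) and HNRNPA2B1 at 1397 and 1282 TPM (SD 81.5). POU5F1, at 1529 and 1389 TPM, lay near RAN and EEF2.

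Isoform shares below are of the TPM of transcripts with an assigned gene. Gene-wide isoform use was described for the 9129 genes with 5 TPM or more in both libraries and at least 2 assigned transcripts. In 2881 of them (31.6%) a single transcript held 80% or more of the TPM in both libraries, and the median share of the leading transcript was 68.1% and 67.9%. Of the 57 lineage genes in this set, 25 (43.9%) had such a dominant transcript. Among the 8922 protein-coding genes, the leading transcript was itself protein coding in 8188 (91.8%). It was annotated as a processed transcript in 273, as subject to nonsense-mediated decay in 264 and as an intron-retaining form in 192.

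Of the 25 most abundant genes, 18 had 2 or more transcripts and 13 of these a dominant one. ACTB-218 held 97.8% and 97.7%, TMSB4X-204 99.5% and 99.7%, GAPDH-201 98.9% and 98.7%, GSTP1-202 98.98% and 99.3% and PTMA-202 90.8% and 89.3% of their genes. Among ribosomal protein genes, RPL41-202 held 97.2% and 97.7%, RPL30-201 93.9% and 93.7%, RPS2-201 98.3% and 98.2%, RPLP0-203 94.7% and 94.2% and RPS18-230 99.5% and 99.3%. RPS20-201 held 98.8% and 98.8%, RPLP2-201 98.1% and 97.7% and RPS29-201 98.9% and 98.9%. The 5 genes without a dominant form were PPIA, RPL8, FTH1, RPS23 and TPI1. Their leading transcripts were PPIA-203 with 62.4% and 53.8%, RPL8-201 with 69.9% and 68.6%, FTH1-212 with 54.9% and 62.2%, RPS23-208 with 67.4% and 69.01% and TPI1-202 with 73.8% and 76.9%. In RPL8, RPS23 and TPI1 the second form was annotated as retaining an intron.

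Identity genes other than the markers fell into dominant and split cases. EPCAM-201 held 98.1% and 95.7%, CXCR4-201 99.3% and 99.5%, ALPL-204 90.2% and 90.3%, MYBL2-201 93.4% and 95.3% and SOX15-201 93.8% and 96.01% of their genes. LIN28A was split between LIN28A-201, with 54.8% and 59.9%, and LIN28A-202, with 45.2% and 40.1%, whose coding sequences of 209 codons are identical in GENCODE 29. In KLF4 the leading transcript, KLF4-205, was an intron-retaining form with 43.3% and 55.4%, ahead of the coding KLF4-201 with 41.1% and 30.3%. CD9-201 and CD9-216 led CD9 and were near even in library 2 but not in library 1, with 47.7% and 41.6% for the former and 36.3% and 41.5% for the latter.

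Podoplanin is shown as the surface antigen whose forms open at different start codons. The opening 48 coding bases of 3 forms are given with the start codon in capitals, from GENCODE 29 on GRCh38, all on the plus strand.
PDPN-212 (chr1:13584034-13584081): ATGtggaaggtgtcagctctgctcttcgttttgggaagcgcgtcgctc
PDPN-202 (chr1:13583806-13583853): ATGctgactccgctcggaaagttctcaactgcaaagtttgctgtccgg
PDPN-203 (chr1:13607232-13607279): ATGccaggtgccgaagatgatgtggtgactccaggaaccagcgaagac
PDPN-212, of 162 codons, was at 179.9 and 139 TPM and held 51.5% and 44.2%. PDPN-202, whose frame opens further upstream and spans 236 codons, was at 83.7 and 90.5 TPM, or 23.97% and 28.7%. PDPN-204 was at 61.6 and 37.1 TPM. PDPN-203, of 120 codons, was at 14.8 and 42.9 TPM and had the largest fold difference between the libraries of the 4. The order of PDPN-203 and PDPN-204 reversed between the libraries, while PDPN-212 and PDPN-202 kept theirs.

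**Figure D3:**
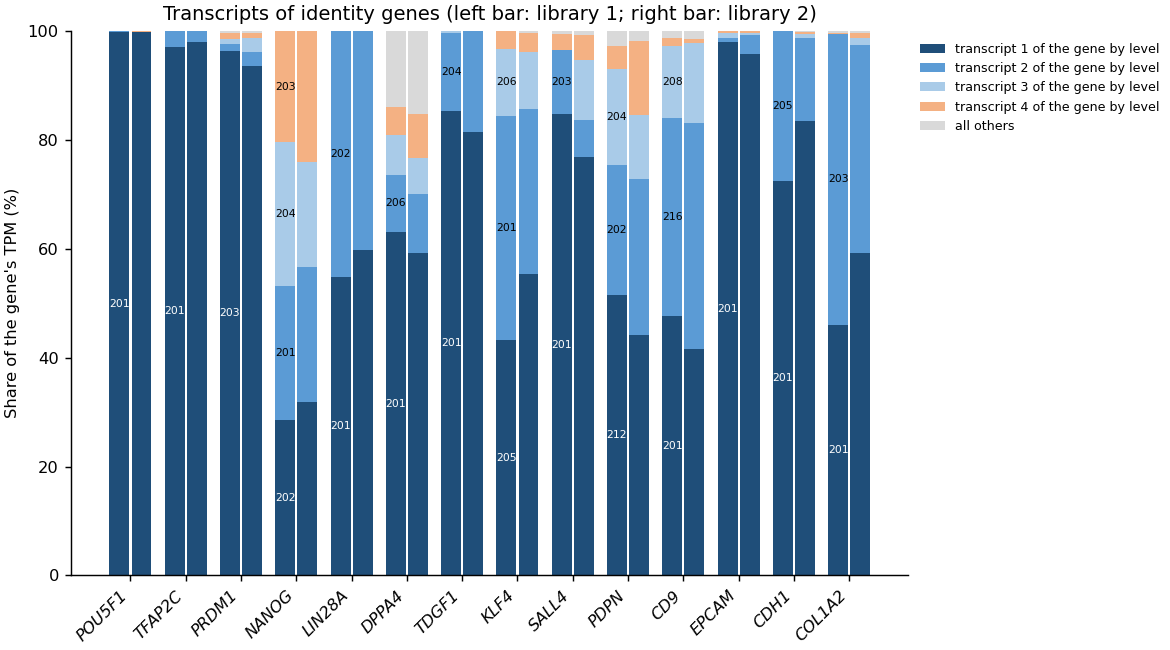
Share of each gene's assigned TPM (%) by transcript, with library 1 in the left and library 2 in the right bar of each pair. The 4 highest transcripts of a gene are coloured by their order and the rest are grey, and numbers inside library 1 bars are transcript name endings. POU5F1, TFAP2C, PRDM1 and EPCAM are filled by 1 transcript, while NANOG is split into 4.

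The leading transcript was not the same in both libraries in 973 genes (10.7%), of which 216 were at a mean of 50 TPM or more, where 2855 genes were compared. The 10 most abundant of these are given with the shares of both forms. In TUBA1C, a tubulin, TUBA1C-203 held 44.04% and 31.2% and TUBA1C-202 27.1% and 35.98% of the gene in libraries 1 and 2. In TRIM28, a corepressor, TRIM28-214 held 26.2% and 27.3% and TRIM28-204 25.2% and 28.96%. In RPL22, a ribosomal protein, RPL22-207 held 40.1% and 28.6% and RPL22-204 18.9% and 42.1%, and in APP, the amyloid precursor, APP-208 held 46.4% and 40.04% and APP-204 44.9% and 50.5%.

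For DDX5, an RNA helicase, DDX5-210 held 31.1% and 24.4% and DDX5-218 13.2% and 27.01%. For PABPC1, the poly(A)-binding protein, PABPC1-201 held 39.6% and 15.2% and PABPC1-215 34.5% and 52.4%. For CAPNS1, a calpain subunit, CAPNS1-201 held 44.8% and 35.2% and CAPNS1-209 26.9% and 37.8%, and for CACNA2D2, a calcium channel subunit, CACNA2D2-205 held 38.8% and 42.7% and CACNA2D2-201 37.1% and 43.6%. For HNRNPH1, a splicing factor, HNRNPH1-203 held 29.02% and 21.6% and HNRNPH1-204 26.9% and 22.8%, and for UBE2S, a ubiquitin-conjugating enzyme, UBE2S-203 held 40.3% and 33.5% and UBE2S-201 28.7% and 34.1%. The largest shift between the libraries in these genes was in PABPC1.

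Of the 57 lineage genes compared, 5 changed their leading transcript between the libraries, beside 973 of all 9129 genes (10.7%). The 5 were TFAP2A, THY1, COL1A2, CLDN7 and ERVW-1. In COL1A2 the coding form COL1A2-201 held 45.96% and 59.3% and the intron-retaining COL1A2-203 53.6% and 38.1%. The gene's level was nearly equal in both libraries (169 and 169 TPM). The difference thus lay in how the TPM was divided among forms and not in the sum.

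The genes of 50 TPM or more whose leading transcript held least were spread over many annotated forms. LINC01002, a long noncoding RNA with 37 transcripts in the table, was led by LINC01002-227 with 13.3% and 10.5%. TIA1, an RNA-binding protein of stress granules, was led by TIA1-203 with 18.2% and 13.4%, COPA, a coatomer subunit, by COPA-214 with 18.03% and 14.5%, and ATXN2L by ATXN2L-203 with 16.8% and 16.9%. ISYNA1, inositol synthase, was led by ISYNA1-202 with 22.8% and 14.9%, CCDC90B by CCDC90B-202 with 13.4% and 24.7%, and THOC2, of the mRNA export complex, by THOC2-220 with 19.1% and 19.6%. KLC1, a kinesin light chain, was led by KLC1-224 with 15.7% and 24.3%, DMKN by DMKN-202 with 19.9% and 20.4%, and ACIN1 by ACIN1-223 with 21.2% and 19.8%. In these 10 genes no leading transcript held more than 24.7% of the TPM in either library.

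The summed TPM and the gene table were set side by side to find levels that rest on 1 table only. For 9990 genes of 5 TPM or more, 8779 (87.9%) had reads per kilobase within 2 times of what their TPM predicts at the median ratio. Across these genes, which are not independent replicates, Spearman's rho was 0.852. POU5F1, TFAP2C, SOX17 and PRDM1 were among those within 2 times, with ratios to the median of 0.921, 1.01, 0.682 and 1.22, and KIT was not, at 5.85.

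In 88 genes the reads were over 4 times what TPM predicts. EEF1A1, the main elongation factor, was listed at 363 and 507 TPM (SD 102), rank 332, although its 483534 and 455443 reads were the highest of any gene in both libraries. At the median ratio those reads would correspond to 27254 TPM. NCL, nucleolin, was at 615 and 434 TPM (SD 128) with 43912 and 35571 reads, a ratio of 6.86, and KRT8 had a ratio of 7.77. In KRT8 the named transcript with 97.1% and 97.6% of the TPM was an intron-retaining form. The transcript table also held, without a gene, ENST00000678508.1 at 8656 and 9444 TPM, the highest value of library 2. Which gene it belongs to was not determined here. Another 59 genes were under 5 TPM with over 1000 normalised reads, among them VANGL2 and GBF1, listed at 0 TPM. Counts of detected genes use TPM alone and carry this limit. The genes of the lineage lists named here at under 1 TPM in both libraries had at most 39 reads in either.

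In the other direction, 474 genes had reads under 0.1 times what TPM predicts. EEF1G had 0 reads at 1984 and 2023 TPM, and 99.9% of its exon length lies under another gene of the same strand. For LDHB that share was 33.4% and for ALDOA, an aldolase listed at 699 and 748 TPM (SD 34.8) with 108 and 180 reads, it was 42.3%. TUBB3, the tubulin known from neurons, was at 152 and 153 TPM (SD 1.33) with 22 and 17 reads and a share of 35.8%. Others had no such overlap, among them SLC25A6, at 1545 and 1583 TPM with 0 reads. RPL23AP42, a processed pseudogene at 1791 and 1174 TPM with 51 and 68 reads, had none either. Of the 474 genes, 336 (70.9%) had any overlap, against 12.5% of the genes within 2 times. In 34.6% of the 474 genes the overlap covered 50% or more of the exon length, against 0.148% of the genes within 2 times. The part of this overlap in the low reads was not tested. TPM of such genes is therefore given as deposited and not supported by the gene table.

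**Figure D4:**
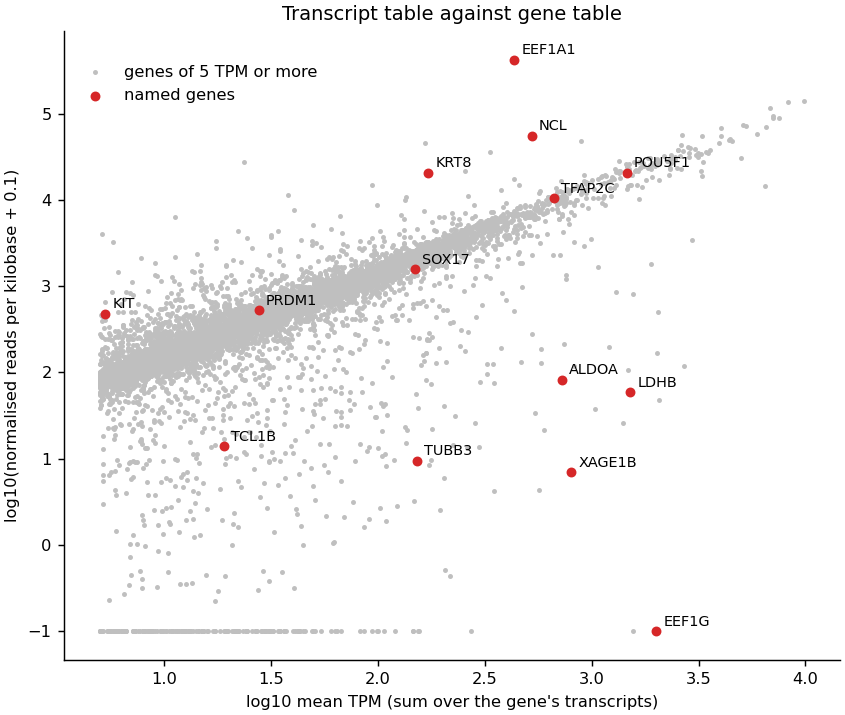
Each grey point is a gene of 5 TPM or more, at log10 of its mean TPM and at log10 of its normalised reads per kilobase plus 0.1. Red points are named genes. POU5F1, TFAP2C, SOX17 and PRDM1 lie on the main band, EEF1A1, NCL, KRT8 and KIT above it, and EEF1G, XAGE1B, TUBB3 and TCL1B below it.

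The 2 libraries agreed closely for most genes. Of 8085 genes with a mean of 10 TPM or more, the median absolute log2 difference was 0.13, 34 differed by 2-fold or more and 3 were listed at 0 in 1 library. Those 3 were RPL36A-HNRNPH2, AC107075.1 and HMGN2P5, at 0 and 49.1, 0 and 40.5 and 0 and 40.4 TPM. HMGN2P5, a pseudogene, had 198 and 257 reads, so its 0 in library 1 of the transcript table was not a 0 in reads. RPL36A-HNRNPH2, a readthrough gene, had 0 reads in both.

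The other 7 of the 10 largest differences included 3 genes without support in the reads. RNA5-8SN2, a ribosomal RNA, at 21.6 and 87.4 TPM (SD 46.6), AC034102.2, at 46.02 and 12.98 TPM (SD 23.4), and AC006059.2, at 18.03 and 6.04 TPM (SD 8.48), all had 0 reads in both libraries. SNHG25, a small nucleolar RNA host gene, was at 1.34 and 24.3 TPM (SD 16.2) with 2 and 9 reads. GTF2H2, a subunit of TFIIH, was at 32.4 and 10.1 TPM (SD 15.8) with 69 and 66 reads, SCAPER at 16.7 and 5.303 TPM (SD 8.09) with 496 and 472 reads, and ATP1B1, a sodium pump subunit, at 6.58 and 19.9 TPM (SD 9.42) with 1323 and 1530 reads. In GTF2H2 and SCAPER the TPM was over 3-fold lower in library 2 while the reads were nearly equal.

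A pair of gene classes differed between the libraries mostly in 1 direction. Of 13 mitochondrially encoded protein genes 11 were lower in library 2, with a median log2 difference of -0.38. Of 82 cytosolic ribosomal protein genes 61 were higher in library 2, with a median of 0.12. Among all genes of 10 TPM or more, those shorter than 700 bases had a median log2 difference of 0.08 and those of 700 to 1000 bases 0.05. The median was -0.00017 at 1000 to 2000 bases, -0.02 at 2000 to 4000 and 0.01 at 4000 or more. By normalised reads the medians, from the shortest to the longest class, were 0.14, 0.05, -0.03, -0.06 and -0.03. These length classes include the mitochondrial and ribosomal protein genes. Which of culture, library preparation and transcript length moved the mitochondrial and ribosomal protein genes was not tested.

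**Figure D5:**
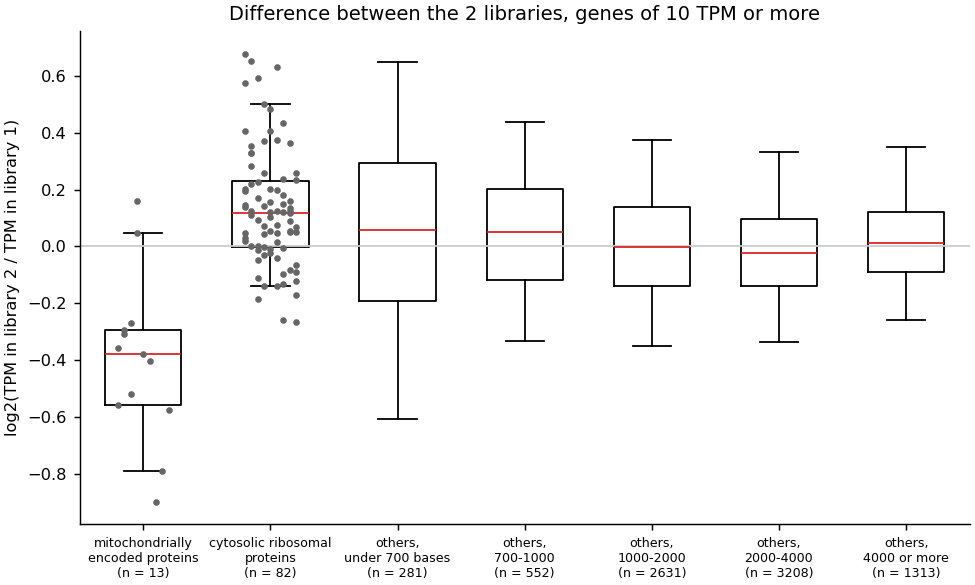
log2 of TPM in library 2 over library 1 for genes with a mean of 10 TPM or more and above 0 in both. Boxes span the quartiles with the median in red, whiskers reach from the 5th to the 95th percentile, and points are shown for the 2 left classes. The mitochondrial median lies at -0.38 and the ribosomal protein median at 0.12. The boxes by length leave out the mitochondrial and ribosomal protein genes.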

How the data were processed

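Polyadenylated RNA of 2 libraries of unmodified TCam-2 cells was analysed. Per the submitters' processing notes, Trim Galore 0.6.10, STAR 2.7.11a, Salmon 1.10.2 and DESeq2 were used with GRCh38 (hg38). The annotation release and whether counting used strand are not given in the sources used here. The transcript table deposited by the authors holds TPM, which keeps no depth. The gene table deposited by the authors holds a normalised signal, reads per gene divided by 1 factor per library. All nonzero values of both libraries (24362 and 25091 genes) were whole multiples of 1 step within 0.01, which gave 29318007 and 28604436 reads. Where a gene had 0 reads, up to 3 are allowed, for counting error only. The number of columns that belonged to no sample was 0.

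Transcripts were matched to GENCODE 29 by identifier without version and TPM summed per gene (Python 3.11.15, pandas 2.3.3, numpy 2.4.6, scipy 1.17.1, matplotlib 3.10.9). Detection needed 1 TPM in both libraries. A dominant isoform needed 80% of the TPM in both, in genes of 5 TPM or more with 2 or more transcripts. The sums, counts and shares were tested on simulated data. No test was run, since 1 group of 2 libraries allows none.

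Named genes were the 5 markers, lineage genes of 10 TPM or more in both libraries, up to 4 of the highest members of other lists and the 25 most abundant genes. Added were the 10 genes with the lowest leading share, the 10 most abundant with a changed leading transcript, both at 50 TPM or more, and the 10 with the largest difference between libraries. Lower list members and genes on which the tables disagree were picked after their values were seen. Values of some list members are not reported here. The members and lists were chosen with earlier results of these data known. Alternatives tried were other TPM and read minimums, other share thresholds, other denominators, and each library alone.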

Additional observations from a re-analysis of the deposited data

Results flagged for a closer look

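Transcripts without a gene in GENCODE 29 lie outside the gene sums and carried 5.29% of the TPM over both libraries. They number 50288 of the 251955 in the table. The 3 highest were ENST00000678508.1, at 8656 and 9444 TPM, ENST00000678515.1, at 5950 and 5669 TPM, and ENST00000651669.1, at 5559 and 5174 TPM. These ranked 2, 8 and 10 among all transcripts of library 1 and 1, 9 and 11 in library 2. Their genes were not determined here. With 2 libraries per group, no library could be examined as standing apart from the others.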

How the results depend on the processing

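No paired analysis was possible because 1 group without a test is described. The count of 13043 detected genes stayed within 1.5 times under every alternative run. It was 14293 at 0.5 TPM, 9730 at 5 TPM, 15708 by 10 reads, and 13459 to 13637 with each library alone. The share of TPM in the 100 highest genes, 28.9%, was 22.7% without mitochondrial and ribosomal protein genes, 30.5% over transcripts with a gene, and 30.5% with each unassigned transcript added as a gene, an alternative chosen after seeing the data. With each library alone it was 28.9% to 29%. Dominant isoforms numbered 2881, and 6099 at a 50% share, 1817 at 90%, and 1806 at 20 TPM or more. With each library alone they were 3361 to 3377. Changed leading transcripts numbered 973, and 1662 at 1 TPM and 462 at 20 TPM. In genes whose tables lay within 2 times, also chosen after seeing the data, these counts were 2555 and 845. Several lineage counts moved by over 1.5 times. At 5 TPM the counts were 1 for neuroectoderm, 0 for mesoderm and muscle, 3 for later germ cell, 0 for spermatid, 1 for Sertoli, 0 for Leydig, 0 for leukocyte and 2 for fibroblast markers. At 10 reads they were 7 for embryonal carcinoma, 5 for yolk sac and endoderm, 4 for Sertoli, 3 for endothelial and 4 for leukocyte markers. Endothelial markers were 2 at 0.5 TPM and 1 to 2 with each library alone. The specifier and pluripotency lists stayed within 1.5 times throughout. TPM keeps no depth, so low TPM values have no counting interval.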

Other observations

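Few long noncoding RNA genes and processed pseudogenes were detected in this polyadenylated RNA, beside 22.5% of all genes. Of 7552 lincRNA genes 303 (4.01%) were detected, of 5565 antisense genes 299 (5.37%), and of 10145 processed pseudogenes 92 (0.907%). The 6 highest long noncoding RNAs were picked after their values were seen. H19, the imprinted RNA of the IGF2 locus, was highest by mean, at 371 and 363 TPM (SD 5.63), from 6603 and 4649 reads. Its reads were 0.362 times what its TPM predicts, so its place is uncertain. In library 2 AC106864.1 was higher by TPM. ERVH48-1, a locus of endogenous retroviral origin that encodes suppressyn, was at 316 and 271 TPM (SD 31.8), from 19401 and 16278 reads, and PCAT14, named from prostate cancer, at 259 and 269.7 TPM (SD 7.73). NORAD, a cytoplasmic RNA that binds Pumilio proteins, was at 213 and 198 TPM (SD 10.3). AC106864.1, annotated as antisense, was at 214 and 412 TPM (SD 139.6), so its libraries differed nearly 2-fold. AC007326.5 was listed at 189.7 and 216 TPM (SD 18.4) but had 409 and 599 reads, 0.169 times what its TPM predicts. Of its exon length 61.2% lies under another gene of the same strand, so its level is uncertain. H19 had fewer reads in library 2 although its TPM was almost equal.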
